A study of Drosophila melanogaster with 4 samples.

Results

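The Enhancer of split complex of Drosophila melanogaster, together with the adjoining gene gro, was described through the clusters of serine 5 phosphorylated RNA polymerase II that overlapped the interval of 3R from 21.815 to 21.885 Mb of FlyBase release 5. Every enriched cluster with at least 1 base in this 70 kb interval was taken, in each of the 3 deposited lists. These were 5 of the 5091 clusters of ChIP replicate 1, 5 of the 4876 of ChIP replicate 2 and 5 of the 5309 of the combined list, 15 of 15276 in all. The combined list also marked 1 region of the interval as depleted. Ordered along the arm, the regions fell at 6 places, numbered here 1 to 6 from the low end of the interval.

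The cells were of the line CME-W1-Cl.8+ (Clone 8), which the labels trace to male larvae of the third instar and to their dorsal mesothoracic disc, from which the wing forms. The labels name no genotype, allele or agent, so all libraries are of untreated cells as far as the labels go, and a line in culture is a limited model of the disc. Fixation was in 1.8% formaldehyde over 10 min. The chromatin was incubated for 15 h with ab5131, an affinity purified rabbit polyclonal antibody to the phosphorylated repeat. The series has 2 ChIP and 2 input libraries, and the ChIP libraries are the replicates compared below. The input libraries were not analysed here as lists of their own. No read counts were given, so depth is unknown. Whether the 2 ChIP libraries were made from different cultures is not stated, so their spread may measure technical variation alone. Cluster lists hold no RNA levels, so the labelled cell type was not checked against its markers.

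The complex is a classic set of targets of Notch signalling. When Notch is activated by a ligand on a neighbouring cell, its intracellular part enters the nucleus and, with the DNA-binding protein Su(H), switches these genes on. Their basic helix-loop-helix (bHLH) products repress proneural genes, and in the wing disc they act in the selection of sensory organ precursors, along veins and at the dorsoventral boundary. Phosphorylation of serine 5 in the C-terminal repeat of the polymerase is placed by the kinase of TFIIH around the start of transcription. It therefore marks polymerase that has begun or paused near promoters, and it is not a measure of RNA output.

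All 13 genes listed for the complex and its neighbour were found by name in the RefSeq table of release 6, and all lay on 3R. In that table their order along the arm was E(spl)mdelta-HLH, E(spl)mgamma-HLH, E(spl)mbeta-HLH, E(spl)malpha-BFM, E(spl)m1, E(spl)m2-BFM, E(spl)m3-HLH, E(spl)m4-BFM, E(spl)m5-HLH, E(spl)m6-BFM, E(spl)m7-HLH, E(spl)m8-HLH and gro. The 7 genes with HLH in their names encode the bHLH repressors, whose last residues bind the Groucho protein. The 4 genes with BFM in their names encode small Bearded family proteins, which limit the activity of the ubiquitin ligase Neuralized and so act on the Notch ligand Delta. E(spl)m1, which the table calls Kaz-m1, encodes a Kazal-type protease inhibitor. The gene gro encodes Groucho, the corepressor that the bHLH repressors recruit, and unlike them it is broadly used by many repressors. Between E(spl)mdelta-HLH and gro the table also lists 6 long noncoding RNA genes. The clusters are placed on release 5 and the table on release 6, and positions were not converted, so no cluster below is assigned to a gene. Only the order is shared: the rule places gro at the high end of the interval, where places 4, 5 and 6 lay.

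The modified polymerase was found at separate places in the interval, not as 1 continuous domain, and the high end, on the gro side, was the most heavily covered. Clusters covered 26.1% of the interval in replicate 1 and 25.9% in replicate 2, a mean of 26.0 ± 0.138% (SD, n = 2), against 16.0 ± 0.0841% (SD, n = 2) of the rest of 3R. In the combined list the values were 27.5% and 18.0%. The differences between the interval and the rest of the arm were 10.07 percentage points in replicate 1 and 9.99 in replicate 2. They exceeded the spread between the replicates, which reflects how repeatable the covered total was and not how regions of the arm differ. Nor does this spread show that the same bases were called: the replicates shared 16.3 kb of the 20.2 kb covered in either. The differences were not tested, since the interval is a single region. Among 3R windows of its length, 22.0% in replicate 1 and 22.5% in replicate 2 were covered at least as much. The differences depended on the 1 broad cluster that crosses the upper edge (place 6 below). With only clusters lying wholly inside the interval, 14.3% was covered. This is under the 16.0% of the rest of 3R, which counts all clusters and so is not a like measure. With the whole-cluster rule applied to 3R windows too, a mean of 39.0% of them were covered at least as much as the interval. Cluster density in the interval was 71.4 per Mb in each of the 3 lists, and on the rest of the arm it was 39.5 and 38.6 in the replicates and 41.1 in the combined list. The interval's count includes place 6, which lies partly outside it. Among 3R windows of the same length, 26.0% in replicate 1 and 23.4% in replicate 2 held 5 or more clusters.

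**Figure D1:**
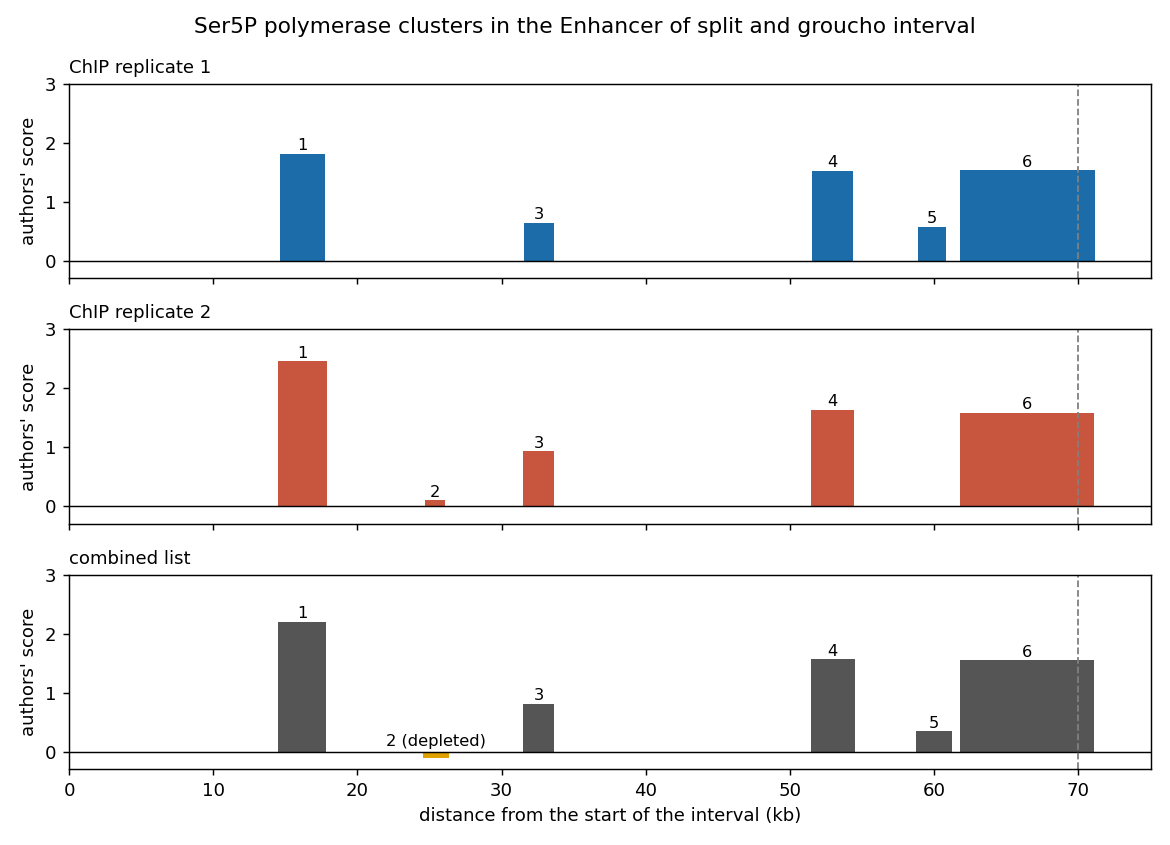
Clusters in the interval by distance from its start in kb (horizontal axis), with 1 panel per list. Bar width is the cluster's width, bar height the authors' score on the scale of its own list, the numbers are the places 1 to 6, and the dashed line is the end of the interval at 70 kb. Places 1, 3, 4 and 6 stand in all 3 panels, place 5 in replicate 1 and the combined list, and place 2 in replicate 2 as enriched and in the combined list as depleted.

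Covered sequence was spread unevenly along the interval. In steps of 10 kb from the low end, the first 10 kb held no cluster in any list, and neither did the stretch from 40 to 50 kb. The last step, from 60 to 70 kb, was 90.4% covered in replicate 1 and 81.9% in replicate 2, and the combined list had 95.01% there. The step from 50 to 60 kb followed in replicate 1 with 40.3%, while in replicate 2 it was 30.1% and the step from 10 to 20 kb was 33.9%. So the order of these steps after the last differed between the replicates, and the fullest one was the same. The step from 20 to 30 kb was empty in replicate 1 and 14.2% covered in replicate 2, by place 2.

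Place 1 had the highest score of the interval in every list. Its cluster ran over 3R:21829621-21832767 in replicate 1 and over 3R:21829481-21832865 in replicate 2, and the combined list had it at 3R:21829520-21832834. The score is the authors' value for each cluster on a scale that the sources used here do not give, so it is read only through its rank within a list. The score of place 1 was 1.81 in replicate 1, where 79.4% of the 3R clusters scored lower, 2.46 in replicate 2, where 93.4% did, and 2.20 in the combined list, where 90.7% did. By rank, place 1 was 228th of 1105 on 3R in replicate 1 and 71st of 1079 in replicate 2. It was thus high in both lists and nearer the top in replicate 2. Its width was ordinary, at 3.15 kb, 3.39 kb and 3.32 kb, and 63.2% of the 3R clusters of replicate 1 and 63.5% of those of replicate 2 were narrower. Against the 278 other 3R clusters of replicate 1 within 1.25 times its width, whose median score was 1.36, it scored higher than 76.3%. In replicate 2 it scored higher than 92.4% of 263 such clusters, so it also ranked high among clusters of its own width.

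Place 3 was a small site of middling to low score. It ran over 3R:21846555-21848615 in replicate 1, 3R:21846486-21848628 in replicate 2 and 3R:21846484-21848634 in the combined list, a width of 2.06, 2.14 and 2.15 kb. Its score was 0.64 in replicate 1, above 24.8% of the 3R clusters, 0.93 in replicate 2, above 38.9%, and 0.81 in the combined list, above 41.2%. Among 3R clusters of like width its score was near the middle, above 39.2% of 492 in replicate 1 and above 53.8% of 465 in replicate 2. Places 1 and 3 lay in the lower part of the interval and were parted there by 13.8 kb in replicate 1 and 13.6 kb in the combined list, while in replicate 2 place 2 lay between them.

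Place 4 opened the high end. It ran over 3R:21866503-21869378 in replicate 1, 3R:21866432-21869437 in replicate 2 and 3R:21866440-21869486 in the combined list. Its score was 1.52 in replicate 1, above 67.7% of the 3R clusters, 1.64 in replicate 2, above 72.3%, and 1.57 in the combined list, above 74.3%. At 2.88, 3.01 and 3.05 kb it was of nearly the same width as place 1, and it ranked below place 1 in all 3 lists. Before it lay the longest stretch without a cluster inside the interval, 17.9 kb in replicate 1 and 17.8 kb in both replicate 2 and the combined list. On 3R such a stretch is common: 310 of the 1104 gaps between neighbouring clusters of replicate 1 and 321 of the 1078 of replicate 2 were at least as long.

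Place 6 was the broad site of the interval and crossed its upper edge. Its cluster ran over 3R:21876765-21886135 in replicate 1, 3R:21876813-21886070 in replicate 2 and 3R:21876756-21886104 in the combined list, so it ended 1.14, 1.07 and 1.10 kb past the interval. It was 9.37 kb wide in replicate 1, 9.26 kb in replicate 2 and 9.35 kb in the combined list, wider than 94.2%, 94.1% and 92.7% of the 3R clusters of these lists. By width it was 64th on 3R in each replicate. Its score did not stand out to the same degree, at 1.53, 1.58 and 1.55, above 68.1%, 69.4% and 73.8% of the 3R clusters. Among the 3R clusters of like width it scored above 42.9% of 56 in replicate 1 and above 42.9% of 49 in replicate 2, so it was near the middle for its width. Places 4 and 6 were close in score, and their order differed between the lists: place 6 ranked 352nd and place 4 ranked 357th in replicate 1, and 330th and 299th in replicate 2.

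**Figure D2:**
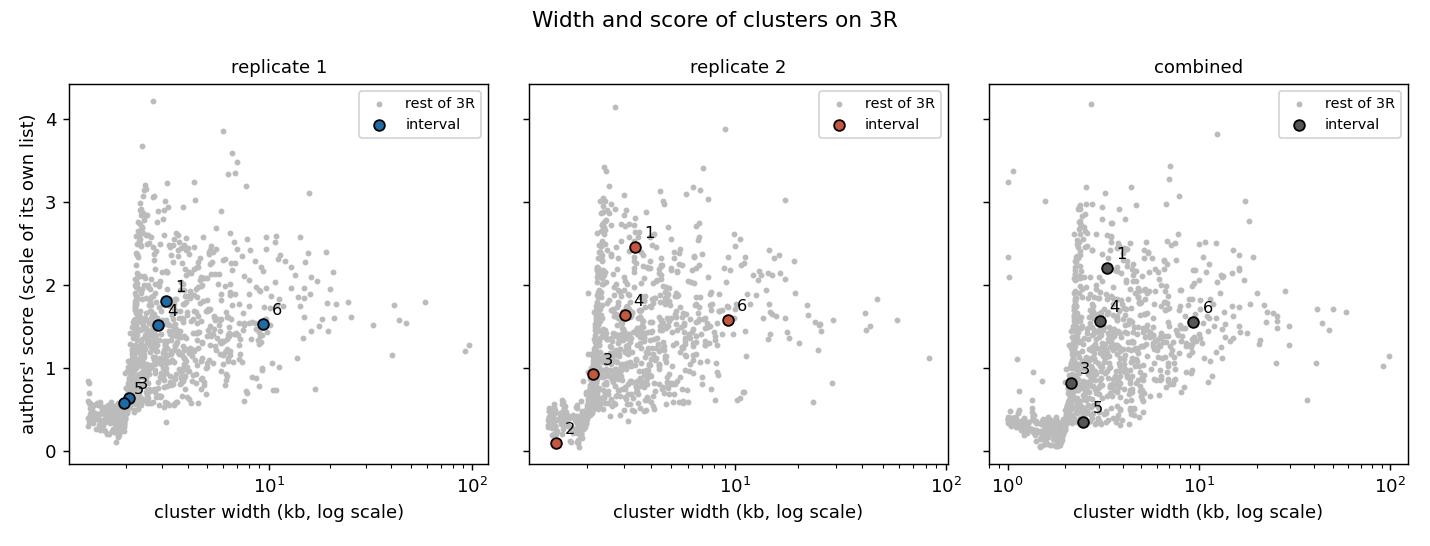
Width of each 3R cluster in kb on a log scale (horizontal axis) against the authors' score on the scale of its own list (vertical axis), with 1 panel per list. Grey points are the rest of 3R and large points the interval clusters with their place numbers. Place 6 lies to the right between 9.26 and 9.37 kb and at mid-height, place 1 is the highest of the interval, and place 2 of replicate 2 lies at the lower left edge.

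The replicates differed at 2 places, both low in score. Place 5, between places 4 and 6, was a 1.96 kb cluster over 3R:21873847-21875807 in replicate 1 with a score of 0.57, above 20.4% of the 3R clusters. Replicate 2 had no cluster there, and its gap from place 4 to place 6 was 7.38 kb. In the combined list place 5 ran over 3R:21873770-21876256 and was wider, at 2.49 kb, with a score of 0.35, above 16.2% of the 3R clusters. That was low for its width, as only 4.03% of 447 combined-list clusters of like width on 3R scored lower. It lay 0.957 kb before place 6 in replicate 1 and 0.499 kb before it in the combined list, so places 5 and 6 were near neighbours and would count as 1 under a rule that joins clusters within 1 kb. In these lists, whether they count as separate depends on the joining rule, and the sources used here leave out the caller's settings.

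Place 2 was called in opposite ways by the lists. Replicate 2 listed it as enriched, over 3R:21839673-21841094, with a score of 0.097, and it was 1.42 kb wide. Only 3 of the 1079 clusters of replicate 2 on 3R, itself included, scored as low or lower, and 14 of the 4876 clusters of the whole list had a score as low or lower. It was also narrow, with 2.69% of the 3R clusters of replicate 2 narrower. Replicate 1 had no region there. The combined list marked 3R:21839540-21841318 as depleted, with a score of -0.116, and all 1422 bases of the replicate 2 cluster lay inside that region. Of the 18 depleted regions of the combined list this had the lowest score, and 2 of the 18 lay on 3R. Place 2 thus rests on 1 library as an enriched site, and the sign of its score differed between that library and the combined list.

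**Figure D3:**
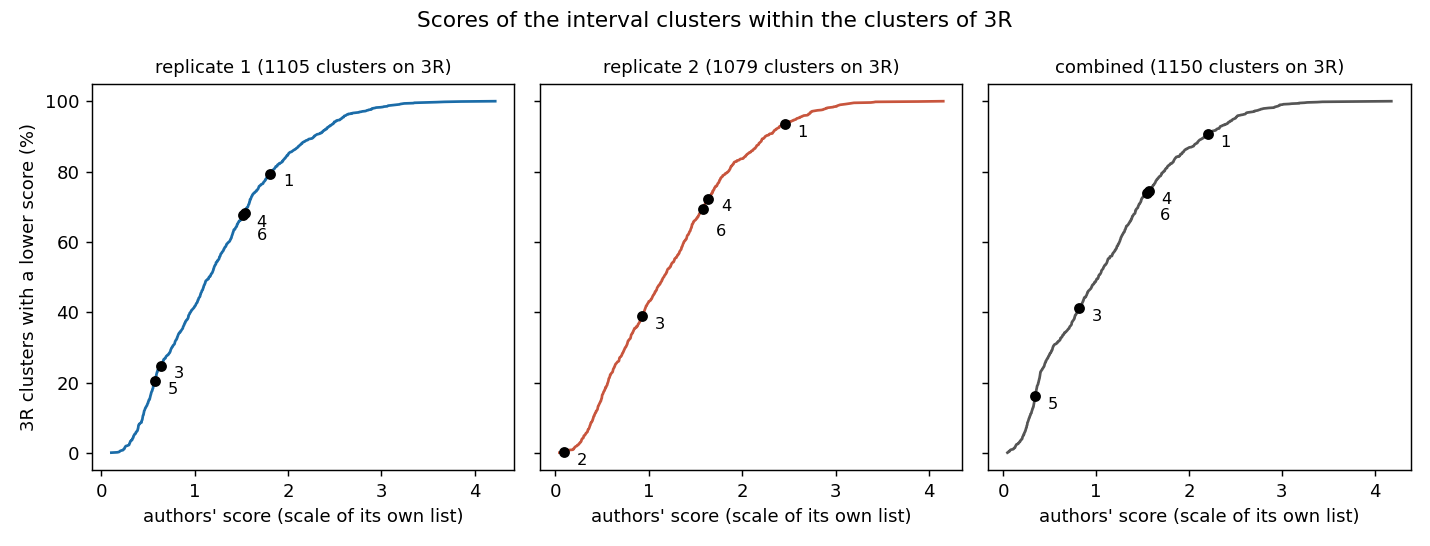
Percent of 3R clusters with a lower score (vertical axis) against the authors' score on the scale of its own list (horizontal axis), with 1 panel per list. The line is all 3R clusters and the points are the interval clusters with their place numbers. Places 1, 4 and 6 lie at 67.7% or above in every panel, place 3 between 24.8% and 41.2%, place 5 at 20.4% and 16.2%, and place 2 of replicate 2 near 0.

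The interval's clusters covered a wide range of scores. They scored above 20.4 to 79.4% of the 3R clusters in replicate 1 and above 16.2 to 90.7% in the combined list. In replicate 2 the range without place 2 was 38.9 to 93.4%, and place 2, which the combined list marked as depleted, lay near 0. The median interval cluster scored above 67.7% of the 3R clusters in replicate 1 and 69.4% in replicate 2, a mean of 68.6 ± 1.22% (SD, n = 2). With 5 clusters this median depended on which were counted: it was above 50.9% with only clusters wholly inside, above 50.2% with the interval widened by 10 kb on each side, and above 39.2% of the clusters kept when each list was reduced to its upper 50% by score. By definition, 50% of the clusters of a list score above its median. In each of the 3 lists, 3 of the 5 interval clusters scored above the median of the whole list, near that share, and these were places 1, 4 and 6. None had the top score of the arm, which was 4.22 in replicate 1 and 4.15 in replicate 2, against 1.81 and 2.46 in the interval. By rank on 3R, place 1 was 228th of 1105 in replicate 1, 71st of 1079 in replicate 2 and 107th of 1150 in the combined list. Median width was 2.94 ± 0.0919 kb (SD, n = 2) against 2.62 ± 0.107 kb on the rest of 3R, and apart from place 6 no interval cluster of a replicate was wider than 3.39 kb.

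The replicates shared 4 places and each had 1 of its own. Of the 5 clusters of replicate 1, 4 (80.0%) met one of replicate 2 (overlap of 1 bp or more), against 93.5% of all 1105 replicate 1 clusters on 3R. Of the 5 of replicate 2, 4 overlapped one of replicate 1, against 94.8% of all 1079 on 3R. In the combined list, 4 of 5 were found in both replicates, against 82.0% of 1150 on 3R. With 5 clusters, a share of 80.0% has a Wilson 95% interval of 37.6 to 96.4%. It covers counting error only and treats neighbouring clusters of 1 locus as independent. It is too wide to tell whether agreement here differed from that of the arm, so no conclusion was drawn from it. The shared places 1, 3, 4 and 6 each matched one to one, and the values that follow describe these places, which sharing itself picked out. Their starts differed between the replicates by 140, 69, 71 and 48 bp and their ends by 98, 13, 59 and 65 bp. Both edges lay within 100 bp at 3 of the 4 places, the exception being the start of place 1, whereas on the rest of 3R both did so in 376 of 870 one-to-one pairs (43.2%). The median overlap was 95.9% of the bases in either cluster, against 94.7% on the rest of the arm, but the median difference was larger in the interval, at 70 bp against 60 bp for starts and 62 bp against 52.5 bp for ends. So the measures pointed in different directions, and edges in the interval were not shown to match better or worse than on the arm.

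Counted in bases, agreement in the interval was somewhat under that of the arm. The replicates shared 16.3 kb of the 20.2 kb covered in either, a Jaccard index of 0.807, against 0.861 on the rest of 3R. Places 2 and 5 added bases to 1 replicate each. Of 2241 windows of the same length on 3R that held any cluster, the median index was 0.898 and 72.0% were at or above the interval. The unshared clusters were of low rank there as on the arm: unshared clusters of the rest of 3R had a median score of 0.49 in replicate 1 and 0.44 in replicate 2, against 1.21 and 1.22 for shared ones, and those of the interval had 0.57 and 0.097.

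The interval stood between sparsely marked flanks. The window of the same length below it held 1 cluster in each list, with a score of 0.27 in replicate 1 and 0.32 in replicate 2, and was 2.77% and 2.82% covered. The window above it held place 6 and 1 further cluster in each list and was 4.70% covered in replicate 1 and 4.64% in replicate 2. The nearest cluster below place 1 ended 19.8 kb away in replicate 1 and 19.7 kb away in replicate 2. Above place 6 the next began 45.4 kb away in replicate 1 and 45.5 kb away in replicate 2, a gap longer than 87.2% and 86.5% of those on 3R. Inside the interval each replicate had 4 gaps, with a median of 9.13 kb in replicate 1 and 7.09 kb in replicate 2. On the rest of the arm the medians were 6.04 and 6.26 kb. In replicate 2 the gaps of 6.81 and 5.39 kb border place 2, which the combined list marked as depleted. By these medians the clusters of the interval were not more closely packed than neighbours elsewhere on 3R.

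Ranked among windows of its own length, the interval was above the middle of the arm and not extreme. Windows were taken every 10 kb along 3R, leaving out those that touched the interval, and overlapping windows share bases, so the ranking is a description. Counting only clusters wholly inside a window, 39.0% of windows were covered at least as much. With all clusters, of 2770 windows, 22.0% in replicate 1 and 22.5% in replicate 2 were covered at least as much as the interval, a mean of 22.3 ± 0.383% (SD, n = 2), and the median window was 11.5% and 11.3% covered. By number, 26.0% of the windows in replicate 1 and 23.4% in replicate 2 held 5 or more clusters, and the median window held 2 in each.

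**Figure D4:**
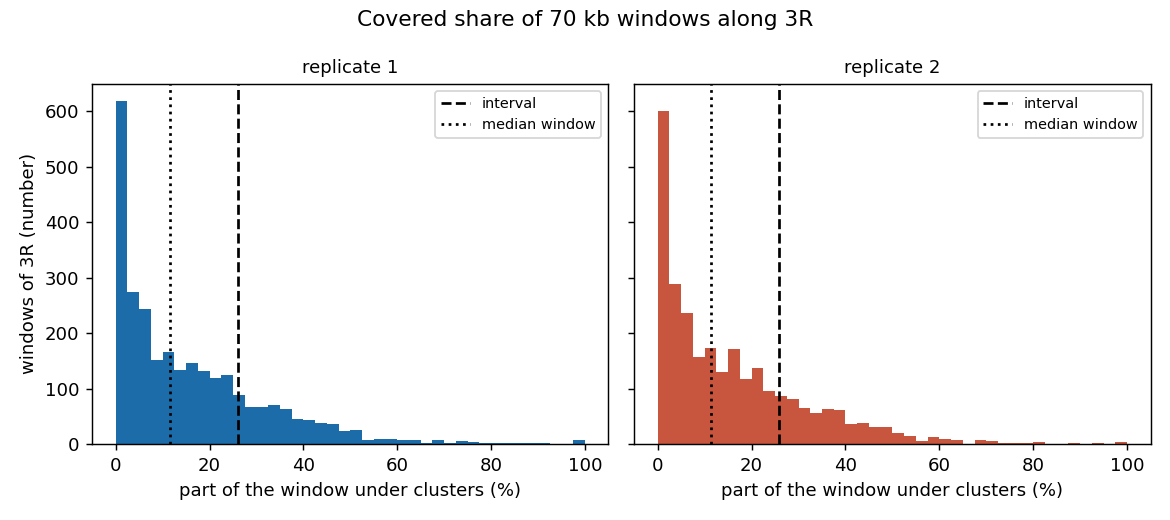
Number of windows of 70 kb along 3R (vertical axis) by the percent of the window under clusters (horizontal axis), with 1 panel per replicate. The dashed line is the interval, at 26.1% and 25.9%, and the dotted line the median window, at 11.5% and 11.3%. Many windows hold few or no clusters, and 22.0% and 22.5% of them reach the interval's level.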

How the data were processed

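ChIP-seq regions were analysed for 2 ChIP libraries, each with its own list, and for the series' combined list. The submitters' processing notes name Bowtie 0.12.7 as the aligner, and the file headers give FlyBase release 5 as the genome build. Each region has a deposited score, the authors' value on an unstated scale, compared only within a list. The caller, its threshold, the input used and the making of the combined list are absent from the sources used here. Start and end positions were used as deposited.

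Regions labelled as enriched were taken as clusters and counted as shared at an overlap of 1 bp or more. Windows had the interval's length. Clusters of like width were those within 1.25 times a cluster's width. No test was run: the interval is 1 region, the replicates are 2 libraries of 1 group, and intervals do not reflect read depth. Software was matplotlib 3.10.9, scipy 1.17.1, pandas 2.3.3, numpy 2.4.6 and Python 3.11.15, and the overlap, window and merging steps were tested on simulated data. The interval, genes and measures were chosen with earlier results of these data known. Every cluster overlapping the interval was named, and genes by a list. Planned promoter motifs and protein features are not reported, as no sequences were used here. The RefSeq table of release 6 gave names and order only. Alternatives covered a score threshold, merging, the interval's edges, whole clusters, each replicate alone, the overlap rule, and the clusters and windows compared with.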

Additional observations from a re-analysis of the deposited data

How the results depend on the processing

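Of 42 alternative values for 7 results, 20 stayed within the spread between replicates, the share's interval or, for numbers of clusters, 1.5 times the original, and 22 moved further. Where the spread between replicates was the limit, leaving out 1 of the 2 replicates could not move a value beyond it. Those values, counted among the 20, therefore say nothing about stability. The alternative values carry no sign that could reverse, but some changed sides against the arm, as given here. The Jaccard index has no such spread, so any change of it counted as a move. With the upper 50% of each list by score, 3 clusters remained by construction, covering 20.6%, with a median width of 3.27 kb, a median score above 39.2% of the 3R clusters kept, a Jaccard index of 0.972, 100.0% of replicate 1 clusters found in replicate 2 and 17.4% of windows covered at least as much. Merging within 1 kb gave 26.7% covered, a median score above 64.4%, an index of 0.771 and 100.0% found. Widening the interval by 10 kb on each side gave 23.6% covered, a width of 2.52 kb, a score above 50.2%, an index of 0.829 and 25.7% of windows. Taking only clusters wholly inside, which removes place 6, gave 14.3%, 2.52 kb, 50.9%, 0.678 and 39.0% in the same order, so without place 6 the covered share fell below the 16.0% of the rest of 3R (counted there with all clusters), and the median score came to the middle of the arm. The upper 50% of the lists put it below the middle of the clusters kept. Ranking against the large arms gave a median score above 67.0%. Leaving out each replicate gave 5 clusters either way, 25.9 to 26.1% covered, a width of 2.88 to 3.01 kb, a score above 67.7 to 69.4% and 22.0 to 22.5% of windows. For other changes the cause was not tested. No paired analysis was possible because the results come from no test and the input libraries had no list here. Unknown read depth limits how the replicate lists can be compared, since a deeper library can list more clusters.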
